A study of Drosophila melanogaster with 32 samples.

Results

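The chromosomal sites of the insulator proteins Su(Hw) and Mod(mdg4) were compared in mock-treated Drosophila melanogaster Kc167 cells, a line derived from female embryos. The comparison used 4 of the 24 ChIP-seq peak lists of the series, which holds 32 libraries. There were 2 libraries with the SuHw antibody and 2 with the MOD antibody, numbered R1 and R2, all from cells whose treatment is given as mock. Lists of 4 further kinds served as readouts at the sites, with 2 libraries per antibody each: CP190 and M1BP in the same mock cells, CP190, SuHw and MOD after M1BP knockdown (20 µg of double-stranded RNA, 5 days), CP190 and M1BP in a second mock set, and CP190 after Cp190 knockdown (12 µg, 5 days). No source used here says what the mock cells received or whether R1 and R2 came from separate cultures, so the spread between them may be technical. The study asked where M1BP, a promoter-binding zinc-finger protein, coincides with Su(Hw), CP190 and Mod(mdg4), and whether each depends on the others.

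Joining all peaks with 1 bp or more in common, across the 4 lists, turned 15786 peaks into 5311 sites. A site with a peak in all 4 lists was called shared, and 2431 sites met this (45.8% of all merged sites). A site with a peak in both Su(Hw) lists and in neither Mod(mdg4) list was called Su(Hw)-only, and there were 1455 (27.4%). The reverse, a Mod(mdg4)-only site, occurred 121 times (2.28%). The other 1304 sites had a protein in only 1 of its lists and entered no class.

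Su(Hw) binds DNA itself through an array of zinc fingers and is best known for the insulator of the gypsy retrotransposon, which blocks an enhancer when it lies between that enhancer and a promoter. Mod(mdg4) is a BTB-domain protein made in many isoforms, at least one of which is brought to DNA through Su(Hw). CP190, a further BTB and zinc-finger protein, is the third component of the gypsy complex and is also found at many promoters. A peak list shows where enrichment passed the caller's threshold, so a site outside a list may still have held weaker signal.

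Su(Hw) gave more and wider peaks than Mod(mdg4). The Su(Hw) lists held 4579 peaks in R1 and 4544 in R2, and the Mod(mdg4) lists held 2999 and 3664. Both Mod(mdg4) lists were shorter than both Su(Hw) lists, with means of 4561.5 ± 24.7 for Su(Hw) and 3331.5 ± 470 for Mod(mdg4) (SD, n = 2 libraries each; two-sided exact permutation test, p = 0.333, the smallest p that 2 libraries against 2 can give). The median peak width was 740 and 750 bp in the Su(Hw) lists and 436 and 450 bp in the Mod(mdg4) lists, a difference of -302 bp for Mod(mdg4) minus Su(Hw) (exact permutation test, two-sided, p = 0.333). The narrowest peak moved with this difference: it was 296 bp wide in both Su(Hw) lists and 147 bp in both Mod(mdg4) lists. Exactly these widths were held by 33 and 41 Su(Hw) peaks and by 68 and 91 Mod(mdg4) peaks. After M1BP knockdown the narrowest peak was again 147 bp in both Mod(mdg4) lists, and 287 and 294 bp in the Su(Hw) lists. Among peaks of at least 296 bp the difference of median widths was -111 bp. The peak-calling options are unknown, so a setting that differed between the antibodies and a difference between the proteins cannot be told apart in the widths. No source used here gives the read depth, and its part in the lengths of the lists was not tested.

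Nearly every Mod(mdg4) site was also a Su(Hw) site, whereas a large minority of Su(Hw) sites had no Mod(mdg4) peak. Of 2606 sites with a peak in both Mod(mdg4) lists, 2431 were shared (93.3%, 95% Wilson interval 92.3 to 94.2), and 4.64% had no Su(Hw) peak. Of 4302 sites with a peak in both Su(Hw) lists, the same 2431 were 56.5% (55.0 to 58.0), 33.8% had no Mod(mdg4) peak and 9.67% had a peak in 1 Mod(mdg4) list. These intervals, like those that follow, cover counting error only. The 2 shares depend on how long the lists are. When each list was reduced to its 2999 peaks of highest fold enrichment, 67.7% of Su(Hw) sites and 77.1% of Mod(mdg4) sites were shared, with 715 Su(Hw)-only and 404 Mod(mdg4)-only sites. Shared sites made up 54.3% to 59.8% of the Su(Hw) sites on X and on both arms of each large autosome, and 7 of 9 on chromosome 4. In the cells with M1BP knockdown the corresponding shares were 52.8% and 82.1%.

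The overlaps at shared sites were long in base pairs. The longest overlap between a Su(Hw) and a Mod(mdg4) peak had a median of 634 bp over the shared sites, and the shortest was 105 bp. When each peak had to be overlapped by at least 50% of its length, 1905 shared sites were found. Few sites missed by a short distance: 21 of the 1455 Su(Hw)-only sites and 15 of the 121 Mod(mdg4)-only sites had a peak of the other protein within 500 bp.

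The summits, the position of highest enrichment in each peak, lay almost on top of each other. At the 2084 shared sites with 1 peak from each list, the median distance between a Su(Hw) and a Mod(mdg4) summit was 25, 21, 25 and 21 bp in the 4 pairs of lists, a mean of 23.0 ± 2.31 bp. The 2 Mod(mdg4) lists differed from each other by 22 bp, and the 2 Su(Hw) lists by 12 bp. The distance between the proteins was therefore no larger than the spread between Mod(mdg4) replicates in 2 of the 4 pairs and 3 bp above it in the other 2. In genome coordinates the signed medians ran from -1 to 2 bp. The sites were not oriented by a motif, so these medians could not show an offset whose side changes between sites. The distance shrank as the Mod(mdg4) peaks got stronger: in the weakest quintile of Mod(mdg4) fold rank it was 27 to 38 bp, with 41 bp between the Mod(mdg4) lists, and in the strongest 14 to 17 bp, with 14 bp between those lists.

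**Figure D1:**
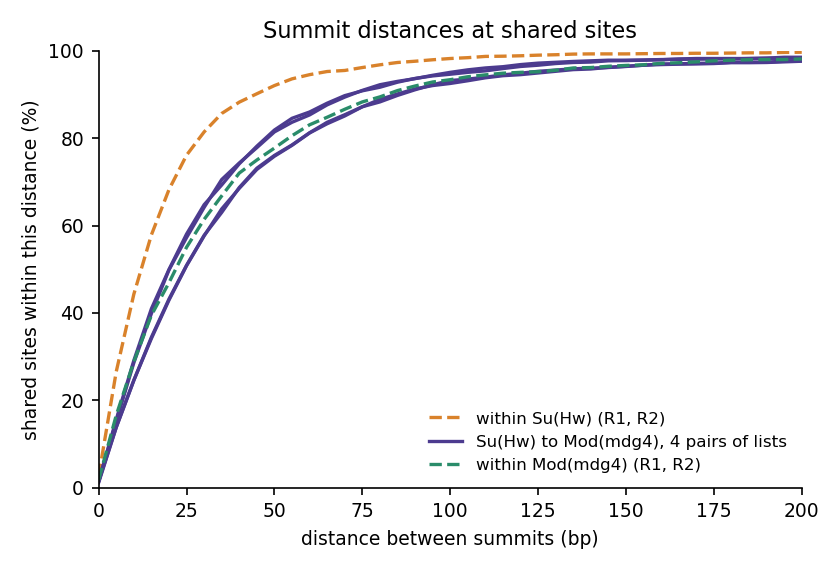
Cumulative percentage of the 2084 shared sites with 1 peak per list (vertical axis) whose summits lay within the distance on the horizontal axis, in bp. Solid lines are the 4 pairs of a Su(Hw) and a Mod(mdg4) list and dashed lines the 2 lists of one protein; the solid lines run with the Mod(mdg4) replicate line (93.4% within 100 bp), below the Su(Hw) replicate line (98.2%).

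Sites that carried both proteins were the stronger ones in each protein's own list. Strength is given here as the percentile rank of the authors' fold enrichment within its list, where 100 is the strongest peak, and fold is used only to rank or describe peaks of one list. The median Su(Hw) rank was 64.4 in R1 and 63.8 in R2 at shared sites and 32.8 and 32.7 at Su(Hw)-only sites, a difference of 31.3 ± 0.357 (SD, n = 2). In fold, these medians were 13.6 and 14.7 against 7.17 and 7.55. The median Mod(mdg4) rank was 58.5 and 66.3 at shared sites and 11.4 and 22.4 at Mod(mdg4)-only sites, a difference of 45.5 ± 2.21. In fold, these were 8.62 and 9.87 against 3.47 and 3.59. The direction was the same in all 4 libraries. The peaks of these lists also set the classes, and both libraries of a protein were read at the same sites. Agreement between the libraries is therefore a description and no test of the difference. With lists of equal length the Su(Hw) difference was 15.5 and the Mod(mdg4) difference 37.3.

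Of the 121 Mod(mdg4)-only sites, 110 lay in the weakest quintile of the sites found in both Mod(mdg4) lists. From the weakest to the strongest quintile of Mod(mdg4) rank, 72.4%, 94.6%, 99.6%, 99.8% and 100% of the Mod(mdg4) sites were shared. Over the quintiles of Su(Hw) rank the shared percentage of Su(Hw) sites went from 25.7% in the weakest through 46.3%, 61.7% and 72.2% to 76.7% in the strongest. In that strongest quintile 134 of 861 Su(Hw) sites still had no peak in either Mod(mdg4) list.

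Shared peaks were also wider, but width followed strength. The Su(Hw) peaks had median widths of 829 bp in R1 and 853 bp in R2 at shared sites and 632 and 623 bp at Su(Hw)-only sites, a difference of 213.5 ± 23.3 bp. In lists of equal length the sign turned, to -19 bp, and the difference was 82.2 bp with the 50% overlap and 141 bp for peaks with a −log10 q of at least 10. Within quintiles of Su(Hw) rank the widths were close and the order changed. In the weakest quintile shared peaks measured 491 and 502 bp against 460 and 460.5 bp. In the strongest, shared peaks measured 1037.5 and 1062 bp against 1158.5 and 1147.5 bp, so that Su(Hw)-only peaks were the wider ones there. The Mod(mdg4) peaks had medians of 522 and 655 bp at shared sites and 212 and 248 bp at Mod(mdg4)-only sites. The last 2 medians are below the narrowest Su(Hw) peak of 296 bp, and among peaks of at least that width 13 Mod(mdg4)-only sites were left.

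**Figure D2:**
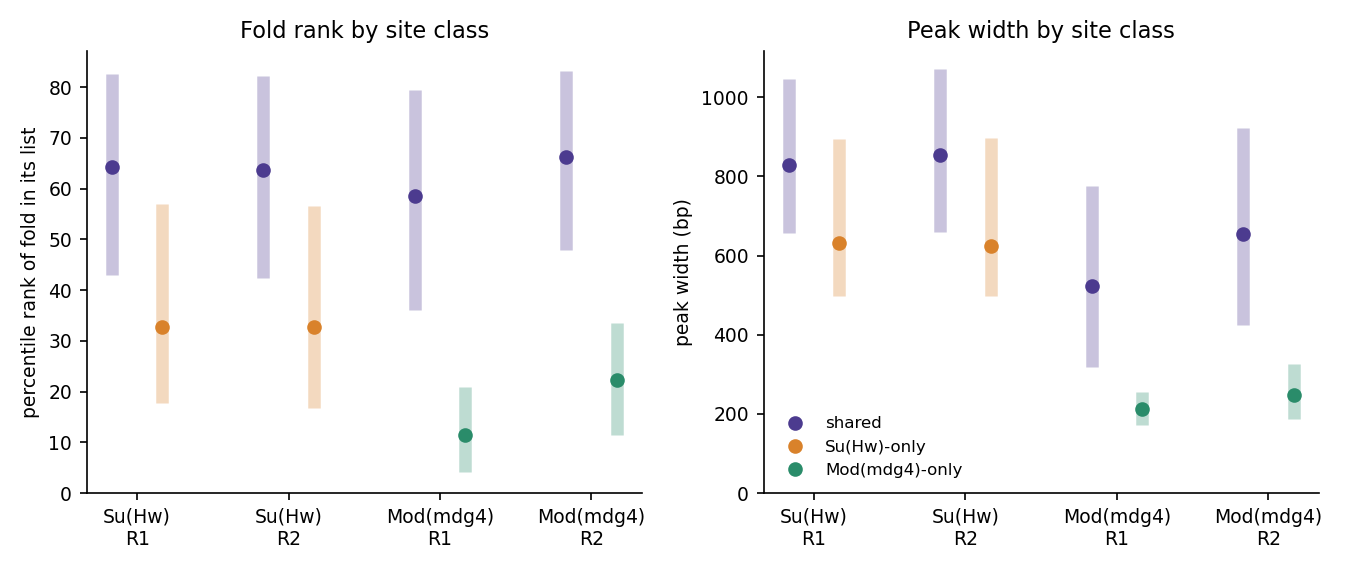
Percentile rank of fold enrichment (left) and peak width in bp (right) for each of the 4 libraries; dots are medians over sites and bars run from the lower to the upper quartile. In every library the median is higher at shared sites than at sites of a single protein, with the largest gap in rank for Mod(mdg4), 58.5 and 66.3 against 11.4 and 22.4.

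Within the shared sites the 2 proteins did not rank the sites alike to the degree that replicates of one protein did. Across the 2431 sites Pearson's r of the ranks was 0.909 between the Su(Hw) lists, 0.879 between the Mod(mdg4) lists and 0.434 to 0.523 between the proteins. These are descriptions across sites, which are not independent replicates and share their libraries. When each list was ranked over the 2431 shared sites alone, Su(Hw) stood at least 50 percentiles above Mod(mdg4) in all 4 pairs of lists at 95 sites, and Mod(mdg4) above Su(Hw) at 3. With ranks over the whole lists, which differ in length, the counts were 43 and 0.

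The shared site with the highest mean rank over the 4 lists lay inside CG32206, on arm 3L from 19349205 to 19350521, with folds of 35.0 and 31.1 for Su(Hw) and 39.2 and 32.6 for Mod(mdg4). The summits of the 2 proteins differed there by 1 bp. Next came sites near BaraA2, inside CG11380, near CG31559, near lncRNA:CR44997 and inside Tk, the gene of the tachykinin neuropeptides. At Tk (3R, 11994958 to 11996577) the folds were 27.6 and 40.9 for Su(Hw) and 27.5 and 31.4 for Mod(mdg4). All 6 had CP190 in both mock lists and kept a CP190 peak in both lists from cells with Cp190 knockdown. The strongest shared sites at gene ends, meaning that the summit was at most 250 bp from where an annotated gene starts or stops, were those of dbf, CG5386, CG11449 and Atet, the last a gene for an ABC-family transporter.

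The widest shared sites spanned several peaks or a long stretch: they lay near lncRNA:CR44443 (2R), at CG33093 (3R), inside Dscam4 (3L), an immunoglobulin-family gene, and inside bru3 (3L), which encodes an RNA-binding protein. The site in Dscam4 ran from 8252748 to 8256298, with folds of 22.9 and 28.9 for Su(Hw) and 18.2 and 24.9 for Mod(mdg4).

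The shared sites with the largest rank gaps over the whole lists are given with each list's own folds. In Nlg2, a neuroligin gene for a synaptic adhesion protein (2L, 6875443 to 6876726), Su(Hw) had folds of 35.9 and 27.0 and Mod(mdg4) 3.52 and 2.88. At CG5111, CG5065 and nAChRalpha3, the last a subunit of the nicotinic acetylcholine receptor, the Su(Hw) folds lay between 19.3 and 28.4 and the Mod(mdg4) folds between 2.52 and 3.53. None of these 4 sites had a CP190 peak after Cp190 knockdown, and none stayed shared under every other way of merging or filtering the peaks. They were picked for a large rank gap and so had weak Mod(mdg4) peaks, which stricter filters tend to remove. With Mod(mdg4) ranked above Su(Hw), the first 4 sites lay at IRSp53, near emp, inside Imp and 3417 bp from CCKLR-17D1. At IRSp53, an actin regulator gene (3L, 11135641 to 11136242), the folds were 11.0 and 12.3 for Su(Hw) and 21.1 and 20.5 for Mod(mdg4).

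The shared sites included loci with a place in the history of these proteins. A shared site (X, 361204 to 362074) overlapped one end of the yellow gene, y, whose neighbourhood is known for an endogenous Su(Hw) insulator. Its mean summit lay 359 bp outside y, 795 bp from lncRNA:yar and inside the long gene CG32816. Its folds were 16.4 and 10.5 for Su(Hw) and 22.4 and 14.7 for Mod(mdg4), and CP190 was present in both mock lists. The gene su(Hw) itself had a shared site (3R, 14307343 to 14308742), with folds of 20.2 and 20.7 for Su(Hw) and 26.8 and 20.4 for Mod(mdg4), and with CP190 and M1BP peaks in both mock lists. The genes mod(mdg4), Cp190 and M1BP had no site of any class within 1000 bp.

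Su(Hw)-only sites were not confined to weak binding. The strongest, inside CG34109 (2L, 10100331 to 10101597), had Su(Hw) folds of 31.5 and 31.6 and no Mod(mdg4) peak. The next, near lncRNA:CR45579 (3R, 11107654 to 11108938), had 30.4 and 32.0. Sites in Ubx, a homeotic gene (folds 23.7 and 33.5), and in Ten-a, a teneurin gene for a synaptic adhesion protein (25.0 and 28.7), were also among the first 6. So were those near CG14070 and CG3795. At gene ends the strongest were at acj6, which encodes a POU-domain transcription factor of olfactory neurons, at CG15431, at CG18599 and at Syt1, the calcium sensor of synaptic vesicle release. All 10 sites were in this class under each alternative tried. The alternatives removed peaks or lists or merged peaks by stricter rules, so they could hardly add a Mod(mdg4) peak there. This outcome is therefore no test of the class. All 10 had a Su(Hw) peak in both lists from M1BP-depleted cells, and 3 of them (CG34109, CG14070 and CG15431) had a Mod(mdg4) peak in both lists there. Su(Hw) sites with a peak in a single Mod(mdg4) list were found mostly in R2, with 370 there and 46 in R1. The strongest of them was near Art2 (2L, 4269043 to 4270948), with Su(Hw) folds of 37.7 and 42.4 and a Mod(mdg4) fold of 6.27 in R2. Those in sNPF-R, near CG1791 and in ths, a gene for a fibroblast growth factor, had Mod(mdg4) folds of 3.70, 3.75 and 3.24 in R2.

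Most Mod(mdg4)-only sites were weak in fold, and the strongest stood apart. Next to Tak1, a kinase gene of innate immune signalling (X, 20524708 to 20525422), the Mod(mdg4) folds were 11.7 and 14.8. The following 5, at Lac, Wnk, near Eh, near nAChRalpha5 and at jdp, had folds of 5.21 to 7.04. The medians of the whole Mod(mdg4) lists were 6.94 in R1 and 6.23 in R2. All 6 had CP190 in both mock lists and Mod(mdg4) in both lists from M1BP-depleted cells, and 2 of them, Eh and jdp, had Su(Hw) in both lists there. The number of Mod(mdg4)-only sites depended on how many lists had to hold a peak and on the peak rules. It was 508 without Mod(mdg4) R1 and 230 without R2, where a peak in the 1 remaining list sufficed and single-list sites entered. Sites with a Mod(mdg4) peak in R2 alone numbered 377, against 95 in R1 alone. With both lists required, the count was 219 with summits within 100 bp, 520 with the 50% overlap and 18 for peaks with a −log10 q of at least 10.

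CP190, which was not used to define the classes, was present at very different shares of their sites. A CP190 peak overlapped 97.8% of shared sites in mock R1 and 97.2% in mock R2, 23.5% of Su(Hw)-only sites in each, and 53.7% and 54.5% of Mod(mdg4)-only sites. The 3 classes did not overlap in either library. Counted as a CP190 peak in both mock lists, the shares were 96.3% for shared sites (95% interval 95.5 to 97.0), 17.6% for Su(Hw)-only sites (15.7 to 19.6) and 52.9% for Mod(mdg4)-only sites (44.0 to 61.6). A narrower criterion, a CP190 peak over the summit itself, gave 95.4%, 17.3% and 52.1%. Requiring that peaks overlap by 50% of each peak to be merged gave 37.6% for Su(Hw)-only and 83.8% for Mod(mdg4)-only sites, and lists of equal length gave 33.0% and 78.5%. Without Mod(mdg4) R1, when a peak in R2 alone sufficed, the share of Mod(mdg4)-only sites with CP190 was 33.1%.

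The same counts can also be read from Su(Hw) sites to Mod(mdg4). Of the 2847 Su(Hw) sites with CP190 in both mock lists, 82.2% were shared (80.8 to 83.6). Of the 1455 Su(Hw) sites without it, 6.19% were shared (5.06 to 7.54). Su(Hw) strength moved with CP190, so the shares were taken within quintiles of Su(Hw) rank. With CP190 the shared percentage was 69.0% in the weakest quintile and 86.5% in the strongest. Without it the values ran from 8.72% down to 1.01%, which is 1 of 99 sites in the strongest quintile. The intervals with and without CP190 were apart in every quintile.

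**Figure D3:**
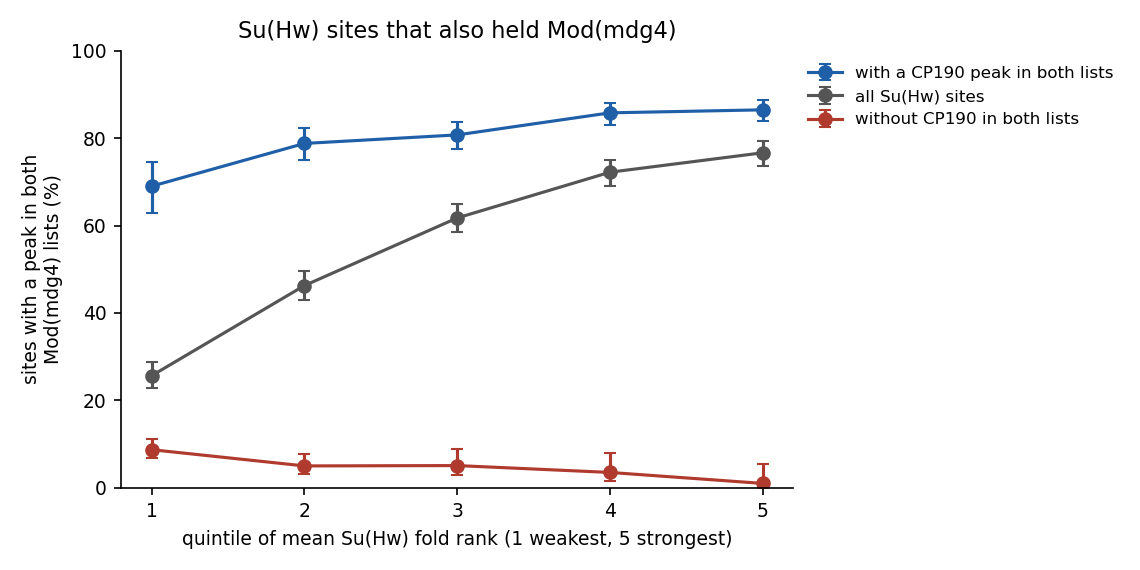
Percentage of Su(Hw) sites with a peak in both Mod(mdg4) lists (vertical axis) by quintile of mean Su(Hw) fold rank (horizontal axis), for all 4302 sites and for those with and without a CP190 peak in both mock lists; bars are 95% Wilson intervals. The line for all sites climbs from 25.7% to 76.7%, while with CP190 it stays between 69.0% and 86.5% and without CP190 below 10%.

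Where CP190 was present, its strength ordered the classes differently from its frequency. The median percentile rank of the CP190 peak in mock R1 and R2 was 69.5 and 69.2 at shared sites, 22.8 and 20.6 at Su(Hw)-only sites, and 94.9 and 95.2 at Mod(mdg4)-only sites. The Mod(mdg4)-only sites thus had weaker Mod(mdg4) peaks than shared sites but, where they had CP190, peaks near the top of the CP190 lists, with median folds of 33.2 and 31.8. The CP190 summit lay a median of 16.5 and 17 bp from the Su(Hw) summit at shared sites, and 35 and 39.5 bp from the Mod(mdg4) summit at Mod(mdg4)-only sites.

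After Cp190 knockdown CP190 peaks were found at fewer sites of all 3 classes, as in the CP190 lists as a whole, which held 8443 and 8197 peaks in the control and 2031 and 2150 after the knockdown, a change of -74.9% in their mean. The control for this treatment was a second mock set, in which CP190 peaks overlapped 97.7% of shared sites in both libraries, 26.3% and 23.0% of Su(Hw)-only sites and 57.0% of Mod(mdg4)-only sites in both. With the knockdown the values were 32.0% and 35.3% for shared sites, 0 and 0.0687% for Su(Hw)-only sites, which is 0 and 1 of 1455, and 36.4% and 35.5% for Mod(mdg4)-only sites. The differences of the means were -64.0 percentage points for shared sites, -24.6 for Su(Hw)-only sites and -21.1 for Mod(mdg4)-only sites (two-sided exact permutation tests with 2 libraries a side, p = 0.333 each, the smallest possible; 0.5 adjusted over 9 tests). In each class the knockdown libraries lay below both mock libraries. Whether the loss differed between classes was not tested. After M1BP knockdown CP190 peaks were found at 98.3% and 96.6% of shared, 33.3% and 26.0% of Su(Hw)-only and 59.5% and 57.0% of Mod(mdg4)-only sites. Both values lay above both values of the first mock set in the 2 single-protein classes, with differences of the means of 6.15 and 4.13 percentage points (exact permutation tests, two-sided, p = 0.333 each, 0.5 adjusted over the 9 tests). The second mock set, without this knockdown, also lay above the first in these classes, by 1.13 and 2.89 percentage points. Its values of 26.3% and 57.0% reached the lower knockdown values of 26.0% and 57.0%.

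**Figure D4:**
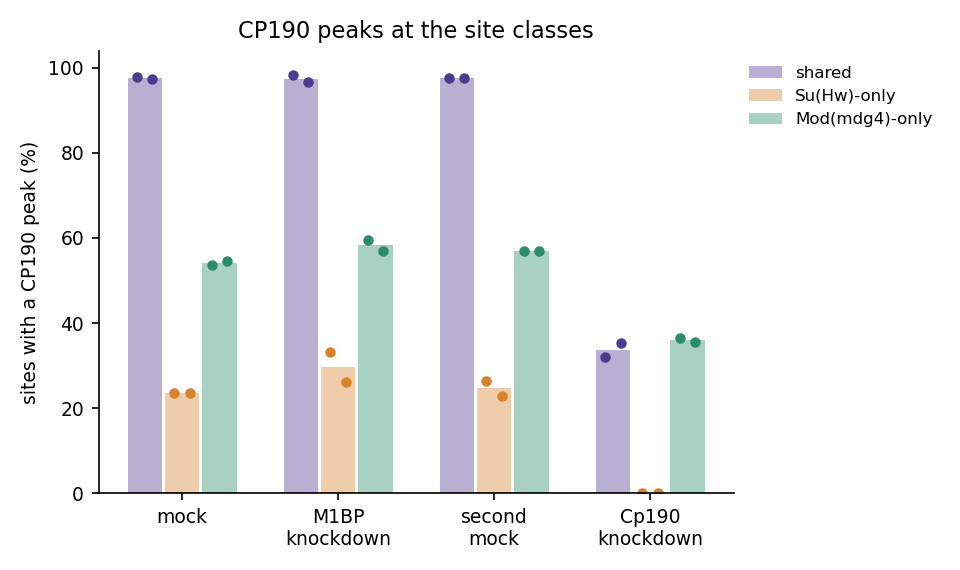
Percentage of shared, Su(Hw)-only and Mod(mdg4)-only sites that overlapped a CP190 peak (vertical axis) in mock cells, M1BP knockdown, the second mock set and Cp190 knockdown; bars are means and dots the 2 libraries. Shared sites stand near 97% outside the Cp190 knockdown and at 32.0% and 35.3% within it, while Mod(mdg4)-only sites stand at 57.0% in the second mock set and at 36.4% and 35.5% after Cp190 knockdown.

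The shared sites that kept a CP190 peak were those with strong peaks. By quintile of Mod(mdg4) rank, the percentage with a CP190 peak after Cp190 knockdown went from 4.52% to 79.8% in R1 and from 4.31% to 81.9% in R2. By quintile of Su(Hw) rank the range was smaller, from 16.2% to 47.3% and from 16.6% to 51.4%. By quintile of the CP190 rank in the second mock set it was larger, from 0.418% to 85.6% and from 0.209% to 87.3%. The ranks of CP190 and Mod(mdg4) moved together, so sites were also divided at the median Mod(mdg4) rank within each CP190 quintile. In the weakest CP190 quintile both groups had at most 0.418%. In the second, the values in R1 and R2 were 3.75% and 8.75% above the median against 2.09% and 0.837% below it, with intervals apart in R2 only. In the middle quintile they were 20.9% and 29.3% above the median against 20.1% in each library below it. In the fourth, sites above the median Mod(mdg4) rank kept CP190 in 62.5% and 70.8% of cases and those below it in 42.7% and 52.3%. In the strongest, the values were 90.0% in each library against 81.2% and 84.5%, with overlapping intervals in each library. The groups still differed in CP190 rank, with medians of 54.2 and 49.2 in the second quintile and 81.8 and 78.8 in the fourth.

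M1BP itself was rare at Su(Hw) sites. In mock cells M1BP peaks overlapped 4.61% and 3.95% of shared sites, 0.893% and 0.756% of Su(Hw)-only sites, and 11.6% and 12.4% of Mod(mdg4)-only sites. In the second mock set the Mod(mdg4)-only values were 23.1% and 16.5%, again above those of the other classes. These are 28 and 20 of 121 sites, against 14 and 15 in the first mock set. The M1BP lists of the second set were also longer, with 3844 and 3426 peaks against 2980 and 2781. The part of list length was not tested.

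The lists from M1BP-depleted cells were not used to define the sites and gave a further look at each class. Su(Hw) peaks recurred there at 99.3% and 99.4% of shared and at 99.4% and 99.2% of Su(Hw)-only sites. Mod(mdg4) peaks recurred at 97.4% and 93.5% of shared sites and at 83.5% and 67.8% of Mod(mdg4)-only sites. They appeared at 13.3% and 8.52% of Su(Hw)-only sites. That share was 30.1% and 19.5% where the Su(Hw)-only site had CP190 in both mock lists and 8.28% and 5.45% where it had none. These groups also differed in median Su(Hw) rank, 52.8 with CP190 against 28.0 without, and the part of Su(Hw) strength was not tested. Su(Hw) peaks appeared at 31.4% and 22.3% of Mod(mdg4)-only sites. All 4 of these lists were longer than the mock lists of the same protein, with 5577 and 5324 peaks for Su(Hw) and 5575 and 4862 for Mod(mdg4), and the part of list length in these values was not tested.

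The classes lay at different places relative to genes. Of the sites on the main chromosome arms, 15.9% of shared (384 of 2419, 14.5 to 17.4), 6.12% of Su(Hw)-only (89 of 1455, 5.00 to 7.47) and 35.6% of Mod(mdg4)-only sites (42 of 118, 27.5 to 44.6) were at a gene end. Inside genes lay 52.7%, 66.9% and 46.6%, and between genes 31.4%, 27.0% and 17.8%. The median distance from a summit to the nearest gene end was 2059 bp for shared, 4690 bp for Su(Hw)-only and 546.5 bp for Mod(mdg4)-only sites. Among sites with CP190 in both mock lists the gene-end shares were 16.1%, 9.77% and 42.9%, and among the others 8.54% (7 of 82, 4.20 to 16.6), 5.34% (64 of 1199, 4.20 to 6.76) and 27.3% (15 of 55, 17.3 to 40.2). Without CP190 the intervals of shared and Su(Hw)-only sites overlapped. When peaks had to overlap by 50% of each peak, the order of shared and Mod(mdg4)-only sites turned, with 18.3% of shared and 11.8% of Mod(mdg4)-only sites at a gene end, and with lists of equal length 23.3% of Mod(mdg4)-only sites were. The gene table carries no strand, and starts and ends of genes were not told apart. The share of the chromosome arms themselves in each position was not computed. The values therefore compare the classes with each other and do not show a preference over random positions.

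**Figure D5:**
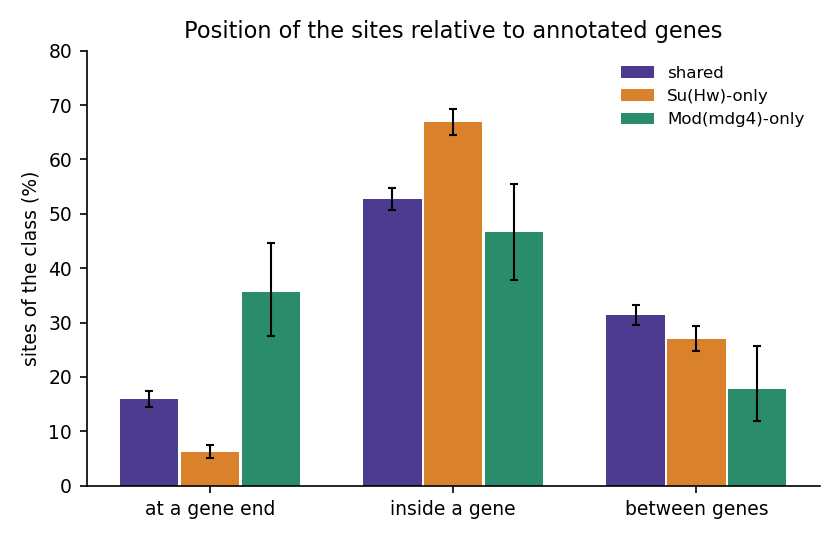
Percentage of the sites of each class (vertical axis) at a gene end, inside a gene or between genes, on the main chromosome arms; error bars are 95% Wilson intervals. Gene ends hold 35.6% of Mod(mdg4)-only, 15.9% of shared and 6.12% of Su(Hw)-only sites, and genes' interiors 66.9% of Su(Hw)-only sites.

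Genes with a site were counted first over all genes. Of 17684 annotated genes, 1785 had a shared site inside or within 1000 bp (10.1%), 887 a Su(Hw)-only site (5.02%) and 160 a Mod(mdg4)-only site (0.905%). There were 320 genes with both a shared and a Su(Hw)-only site, which is 17.9% of the first and 36.1% of the second set. In the quintile of the longest genes 26.9% had a shared site and 18.8% a Su(Hw)-only site, whereas in the other quintiles the ranges were 5.45% to 6.85% and 1.10% to 2.09%. Per 100 kb of gene and flank, the longest quintile held 1.92 shared sites, within the range of 1.37 to 2.35 of the other quintiles, and 1.29 Su(Hw)-only sites, above their range of 0.304 to 0.700. A site in overlapping genes counts for each of them. The genes with most shared sites were bru3 with 24, kirre, an adhesion gene of myoblast fusion, with 15, Dys, the dystrophin gene, with 14, Ten-m, a teneurin gene, with 13, and tei with 11. These 5 genes held 5, 1, 3, 2 and 1 Su(Hw)-only sites. Some long genes had the opposite balance and were picked after their counts were seen: dnc, a cyclic AMP phosphodiesterase gene, had 9 Su(Hw)-only and 6 shared sites, and Sh, a potassium channel gene, had 7 and 2.

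Gene lists are given by their counts beside these shares of all genes. Of 117 cuticular protein genes, short genes with a median length of 983 bp, 22 had a shared site (18.8%), 0 a Su(Hw)-only site and 0 a Mod(mdg4)-only site. Neighbouring cuticle genes often lay within 1000 bp of the same site, so these are not 22 separate sites. The strongest of them were at Cpr47Ee, Lcp65Ag3 and Cpr47Ea. Near Lcp65Ag3 (3L, 6128983 to 6130206) the folds were 23.7 and 21.4 for Su(Hw) and 11.3 and 15.4 for Mod(mdg4). Of 265 chemosensory genes 18 had a shared (6.79%) and 5 a Su(Hw)-only site (1.89%), led by Or43a, Or92a and ppk8. Of 92 ribosomal protein genes 6 had a shared (6.52%) and 0 a Su(Hw)-only site, led by RpLP0, RpS21 and RpS15Aa, and of 73 mitochondrial ribosomal protein genes 1 had a shared site, mRpS16.

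Of 43 synaptic and neuronal genes, 22 had a shared site and 22 a Su(Hw)-only site (51.2% each). Of the 43, 38 were in the quintile of the longest genes, where the shares of all genes were 26.9% and 18.8%. The quintile starts at 5126 bp and the median length of the 43 genes was 26844 bp. Length was therefore not matched within it, and its part in these shares was not tested. The strongest shared sites among them were in eag and at slo, both potassium channel genes, and in nAChRalpha6. The balance differed from gene to gene in examples picked after their counts were seen. The voltage-gated channel genes para (sodium) and cac (calcium) had 5 and 3 Su(Hw)-only sites and 0 shared ones. The genes eag and Snap25, the latter for a protein of vesicle fusion, had 6 and 4 shared sites and 0 Su(Hw)-only ones. Of 12 homeotic-complex genes, Antp had a shared site and 2 Su(Hw)-only sites, Ubx a Su(Hw)-only site and bcd a Mod(mdg4)-only site. That is 8.33% with a shared and 16.7% with a Su(Hw)-only site, and 8 of the 12 were in the longest quintile. Of the 20 genes for insulator and associated proteins, su(Hw) and shep had shared sites, shep also 4 Su(Hw)-only sites, and rump a Mod(mdg4)-only site. Their shares of 10% shared and 5% Su(Hw)-only were near the 10.1% and 5.02% of all genes. Of y and the achaete-scute genes, y alone had a site, 1 of 5 genes.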

How the data were processed

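The authors' deposited peak lists were used. Per the submitters' processing notes the tools were MACS2 2.2.5, Picard 2.20.2, SAMtools 1.9 and Bowtie2 2.3.5; no source used here gives their order, options or genome build. Each deposited list gives per peak a score, a fold enrichment (ratio), the −log10 of a p-value and of a q-value, and the position of the summit as an offset from the peak's start (a value of another kind). These are the authors' values, with 1 list per library. Sequence names match Release 6 of the fly genome. Gene positions came from the RefSeq table of that release, with 17684 genes on the main arms. Peaks were merged with Python 3.11.15, pandas 2.3.3 and SciPy 1.17.1; where a list had several peaks in a site, the strongest stood for it. Merging was tested on simulated peaks. Libraries were compared with two-sided exact permutation tests, adjusted by Benjamini and Hochberg, and shares have 95% Wilson intervals. Sites and genes were not treated as replicates.

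The members, gene lists and tests were chosen with earlier results of these data known. A named site outside all genes is called near its nearest gene at any distance, such as 13852 bp for CG1791. Sites were named by rule: in each class the 6 of highest mean rank and the 4 highest at gene ends; the 4 with the largest rank gap each way; the 4 widest; the 4 strongest Su(Hw) sites with 1 Mod(mdg4) list; up to 3 per gene list; the 5 genes with most shared sites; and 4 loci. Alternatives were summits within 100 bp, an overlap of 50% of each peak, −log10 q of at least 10, lists of equal length, gene ends of 500 bp, leaving out each library and a replicate block. A minimum width, a stricter CP190 criterion and ranks over shared sites alone were added after the data were seen. A promoter motif search was not run because no promoter sequences were used here. The 8 input libraries were not analysed here.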

Additional observations from a re-analysis of the deposited data

How the results depend on the processing

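With summits within 100 bp the Mod(mdg4)-only sites numbered 219, the shared percentages were 54.1% of Su(Hw) and 87.8% of Mod(mdg4) sites, the rank differences 30.4 (Su(Hw)) and 37.1 (Mod(mdg4)), Mod(mdg4)-only sites at gene ends 23.9%, and CP190 shares 20.6% of Su(Hw)-only and 69.9% of Mod(mdg4)-only sites. With an overlap of 50% of each peak the same values were 520, 44.3%, 76.5%, 21.4, 38.9, 11.8%, 37.6% and 83.8%, with a width difference of 82.2 bp and 18.3% of shared sites at gene ends. With −log10 q of at least 10 there were 18 Mod(mdg4)-only sites, shares of 45.1% and 98.4%, a width difference of 141 bp, a Su(Hw) rank difference of 29.1, a summit distance of 20.2 bp, 18.5% of shared sites at gene ends, and CP190 at 20.1% and 72.2%. Lists of equal length gave 715 Su(Hw)-only and 404 Mod(mdg4)-only sites, 67.7% and 77.1%, a reversed width difference of -19 bp, rank differences of 15.5 and 37.3, 23.3% of Mod(mdg4)-only sites at gene ends, and CP190 at 33.0% and 78.5%. Peaks of at least 296 bp gave 13 Mod(mdg4)-only sites, 43.4% and 98.9%. Gene ends of 500 bp held 48.3% of Mod(mdg4)-only and 24.1% of shared sites. The order of shared against Mod(mdg4)-only sites at gene ends therefore turned with the 50% overlap. Beyond the construction of each alternative the cause was not tested.

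Leaving out 1 library gave 2470 to 2803 shared, 1501 to 1825 Su(Hw)-only and 150 to 508 Mod(mdg4)-only sites, shares of 54.2% to 65.1% and 82.5% to 94.3%, a width difference of 196.5 to 258 bp, rank differences of 28.9 to 35.2 and 43.4 to 47.8, summit distances of 22 to 25 bp, gene-end shares of 29.3% to 33.3% and 15.1% to 15.8%, CP190 shares of 16.0% to 26.0% and 33.1% to 57.3%, differences per list of -1562.5 to -897.5 peaks and -309 to -295 bp, and a knockdown difference of -64.8 to -63.9 percentage points. With a library left out, the classes required a peak only in the remaining list of that protein. This lets more sites enter each class, so the higher counts do not measure the weight of a single library.

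With the replicate block, same-numbered lists gave shared percentages of 59.4% and 87.0%, and the exact within-pair tests gave p = 0.5 for peaks, width and CP190 loss, the smallest that 2 pairs allow. The R1 minus R2 rank deviations of the proteins correlated at r = 0.438 over 2431 sites, but no label says that a number marks a shared batch. Of the named sites, 10 of 10 Su(Hw)-only, 30 of 39 shared and 3 of 6 Mod(mdg4)-only sites kept their class in all 9 alternatives. For the Su(Hw)-only sites the alternatives could hardly add a Mod(mdg4) peak, so that count is no test.

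Read depth is not given, so list length limits each single-protein count, above all the weak Mod(mdg4)-only sites, and a missing peak is no measure of absent protein.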

Other observations

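Off the main chromosome arms the Mod(mdg4) lists held a single peak over most of the mitochondrial genome, 15590 bp wide in R1 and 15112 bp in R2, counted among the Mod(mdg4)-only sites. The widest Su(Hw) peaks measured 2968 and 3551 bp. The median distance to the nearest site of the same class was 9836 bp for shared and 17785 bp for Su(Hw)-only sites. For Mod(mdg4)-only sites it was 391135 bp. The classes held 2419, 1454 and 118 sites here, and such distances grow as a class gets smaller. A difference in spacing beyond class size was therefore not tested.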
